A study of Mus musculus with 70 samples.

Results

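Expression of 32 genes of sterol and fatty acid synthesis was followed across mouse embryonic fibroblasts (MEFs), hepatocytes and colonic epithelium in which a senescence-inducing kinase had been switched on. The 32 genes were taken by symbol from a list of enzymes and regulators of both pathways, and all of them were found among the 21859 genes measured. They comprise 7 genes of the mevalonate arm (Acat2, Hmgcs1, Mvk, Pmvk, Mvd, Idi1, Fdps), 11 that carry squalene to cholesterol (Fdft1, Sqle, Lss, Cyp51, Tm7sf2, Msmo1, Nsdhl, Hsd17b7, Ebp, Sc5d, Dhcr7), 5 regulators and sterol carriers (Srebf1, Srebf2, Insig1, Insig2, Stard4) and 9 of fatty acid synthesis and desaturation (Acly, Acaca, Fasn, Me1, Elovl6, Scd1, Scd2, Fads1, Fads2).

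Cells make cholesterol from acetyl-CoA through mevalonate and squalene, and fatty acids from malonyl-CoA, with NADPH supplied in part by malic enzyme. Both pathways are controlled by the sterol regulatory element-binding proteins (SREBPs), membrane-bound transcription factors encoded by Srebf1 and Srebf2. When sterols are plentiful, the INSIG proteins hold SREBPs in the endoplasmic reticulum, and when sterols run low the SREBPs are cleaved and enter the nucleus. The liver is a major site of both pathways, and there Srebf1 also carries the response to insulin and feeding.

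The study measured messenger RNA in bulk in 70 libraries of male C57BL/6 mice, in 26 groups. Doxycycline induced constitutively active MEK1 (caMEK1), which activates ERK and models oncogene-induced senescence, or constitutively active MKK6 (caMKK6), which activates p38 and models stress-induced senescence. MEFs of the 2 genotypes received 2 µg/mL doxycycline for 2, 4 or 7 days or were kept without it to day 2, with 3 libraries per group. The MEF labels end in "ex" and the replicate number, which is not explained, and the replicates are not stated to be separate cultures. Their p-values thus measure the spread between these libraries, which may be technical. The main fit does not pair libraries of the same number. Cells without doxycycline were also passaged and were sampled at day 2 only, so days in culture and the kinase cannot be told apart at days 4 and 7. No Control MEFs received doxycycline. The drug and the kinase therefore cannot be told apart on any day when treated MEFs are compared with untreated MEFs. In double-coloured chimeric mice, mCherry marked the cells that could carry the kinase and GFP the cells surrounding them. Mice labelled Control served as the reference, and their mCherry and GFP cells were sorted in the same way. The drinking water of treated mice held sucrose (10 mg/mL) and doxycycline, of which caMEK1 mice received 0.2 mg/mL and the caMKK6 and Control mice 2 mg/mL, so dose and kinase cannot be told apart wherever caMEK1 mice are compared with Control or caMKK6 mice. Mice on doxycycline were sampled at day 7; the untreated groups of each genotype hold GFP cells alone. Whether untreated mice drank sucrose, the animals' ages and the promoter behind the transgenes are not given in the sources used here. Liver and colon each gave 23 libraries in 9 groups of 2 or 3, from 16 animals, of which 7 gave both colours. In bulk samples, fewer cells of a type and less RNA per cell cannot be told apart.

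Libraries held between 6671204 and 17763531 reads in genes, and all 32 members passed the expression filter in every tissue. Hepatocyte markers were present in liver (10 of 10 at 1 FPKM or more), colon epithelium markers in colon (at least 11 of 12) and fibroblast markers in MEFs. In MEFs on doxycycline the transgenes followed the labels, with 460 to 1169 FPKM of the MEK1 transgene in caMEK1 libraries. The caMKK6 libraries held 130 to 1209 FPKM of the MKK6 transgene. However, 5 caMKK6 MEF libraries (without doxycycline replicates 2 and 3, day 2 replicates 2 and 3, day 4 replicate 2) also held 11 to 16.5 FPKM of the MEK1 transgene. GFP cells of Control mice on doxycycline carried mCherry at 678 and 750 FPKM in liver, against 4727 and 3985 FPKM in the mCherry cells. The caMEK1 mCherry cells of liver held only 14.1, 5.55 and 8.88 FPKM of the MEK1 transgene and 12.2, 4.24 and 6.59 FPKM of mCherry. Those MEK1 levels were near or below the 11 to 16.5 FPKM of the 5 caMKK6 MEF libraries. In colon, caMEK1 mCherry cells held 288 and 235 FPKM of it. The caMKK6 mCherry cells held 216 and 1211 FPKM of the MKK6 transgene in liver and 1214 to 2648 FPKM in colon. GFP cells on doxycycline were not free of the kinase transgenes. In colon they held 116, 8.50 and 10.6 FPKM of the MKK6 transgene with caMKK6 and 12.3 and 28.7 FPKM of the MEK1 transgene with caMEK1. In liver they held 1.51 and 30.9 FPKM with caMKK6 and 0.133, 0.238 and 0.199 FPKM with caMEK1. The source of these transcripts was not tested. In liver, animal 1 of the caMKK6 mice on doxycycline stood apart from animal 2 in both colours. Its Fasn, the fatty acid synthase, was at 4.18 FPKM in mCherry and 3.73 in GFP cells, against 66.2 and 134 in animal 2. With 2 animals, which of them is unusual cannot be told. Total counts of called members that rest on the 5 MEF libraries or on liver caMKK6 animal 1 are given with and without them. The count between untreated MEFs, counts by role and counts of other gene lists are given with them only. Counts from other processing settings or with a library left out come without the share of all genes called in the same fit. They therefore do not show whether members were called more often than other genes there.

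Levels in FPKM (fragments scaled by transcript length and sequencing depth) can be compared between genes. Changes are differences in mean log2(FPKM + 1) ± SE from limma, which understate the change of genes at low levels, and a gene was called at an adjusted p below 0.05 over all genes tested. The tissues differed in which member led. Scd1 and Scd2 encode stearoyl-CoA desaturases, which make monounsaturated fatty acids, and both lie on chromosome 19 (GRCm38 19:44293674-44306864 for Scd2, plus strand, and 19:44394455-44407879 for Scd1, minus strand). Scd2 was the highest member in 7 of the 8 MEF groups (means of 96.2 to 142 FPKM) and in 8 of the 9 colon groups (163 to 422 FPKM), while Scd1 led in 8 of the 9 liver groups (149 to 3095 FPKM). In MEF caMEK1 cells at day 2, Acly, which supplies cytosolic acetyl-CoA, stood first, at 98.8, 98.5 and 104 FPKM in its libraries. Hmgcs1, the HMG-CoA synthase of the mevalonate arm, stood first in the caMEK1 mCherry cells of liver (82.9 FPKM) and of colon (118 FPKM). At the other end, Tm7sf2 was lowest in 7 MEF groups and Scd2 or Idi1 in every liver group. The median member lay between 7.3 and 28.8 FPKM.

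**Figure D1:**
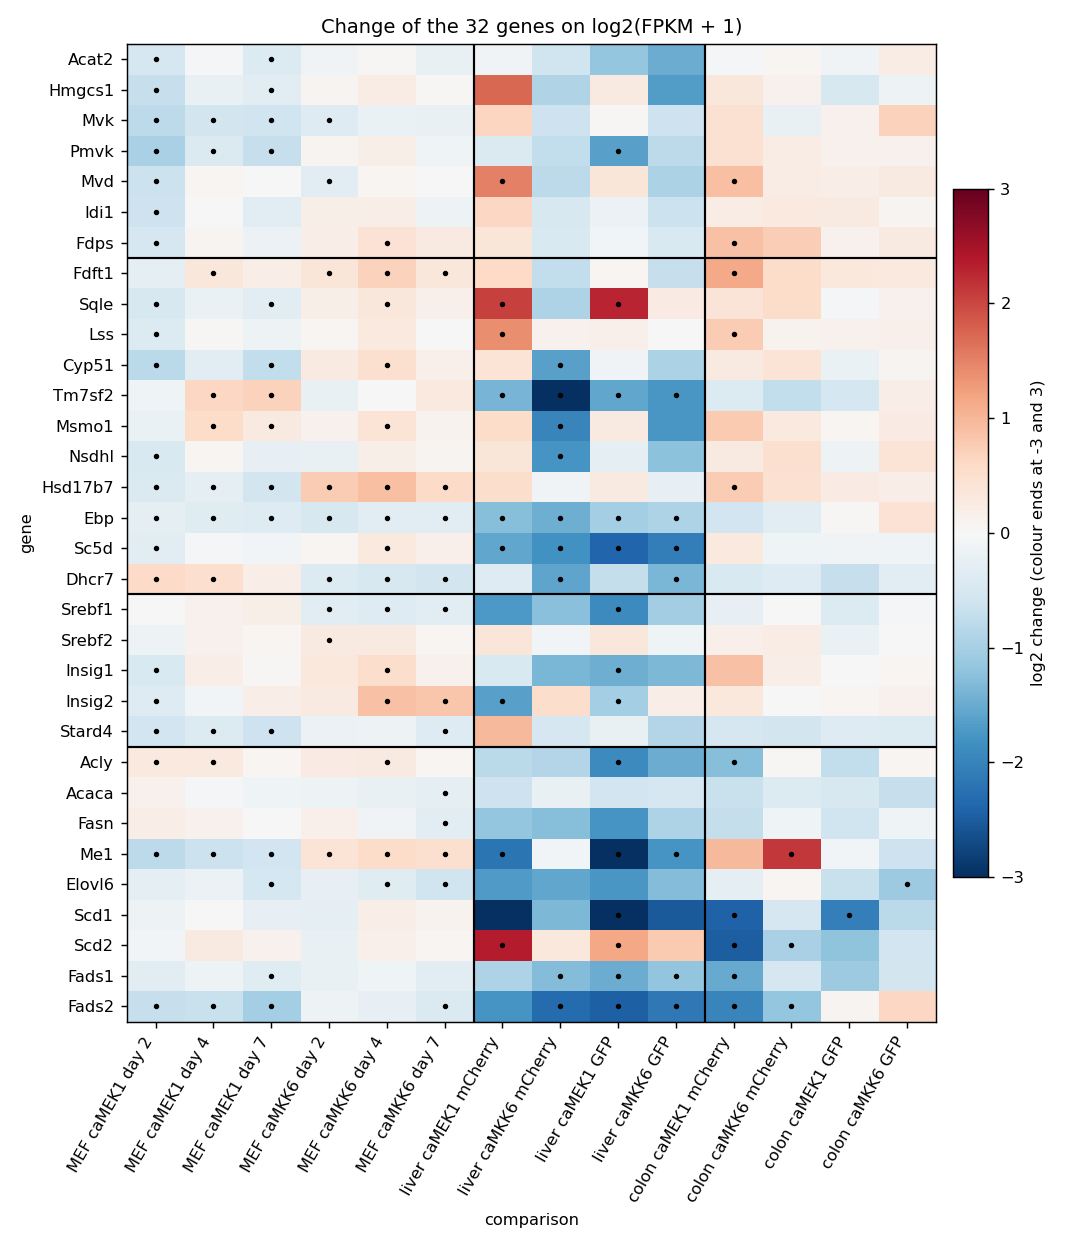
Change of the 32 genes (rows, ordered by role) in 14 comparisons (columns) as the difference in mean log2(FPKM + 1), with the colour scale ending at -3 and 3; dots mark calls at an adjusted p below 0.05 and black lines separate roles and tissues. The mevalonate and squalene genes are mostly blue at day 2 of caMEK1 in MEFs and in caMKK6 liver cells, and desaturase genes are blue in caMEK1 colon cells.

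In MEFs, active MEK1 was followed by lower expression of the sterol pathway, most widely at day 2. At day 2, 19 of the 32 genes fell and 2 rose, where 39.3% of all genes tested were called in either direction and 19.8% fell. The falls took in all 7 genes of the mevalonate arm, 7 of the 11 from squalene to cholesterol, 3 of the 5 regulators and carriers and 2 of the 9 fatty acid genes. The median member changed by -0.39, against -0.01 over all genes. Pmvk, the phosphomevalonate kinase, was at 15.1, 14.6 and 15.0 FPKM without doxycycline and at 6.81, 6.57 and 7.83 FPKM at day 2. Those groups did not overlap, and Pmvk fell by 0.98 ± 0.13 (adjusted p = 3e-06). Cyp51, the lanosterol demethylase, went from 53.8, 55.3 and 51.7 FPKM to 30.1, 32.8 and 27.5 FPKM (log2 change -0.81 ± 0.15, adjusted p = 0.00016). Hmgcs1 stood at 54.2, 54.2 and 51.4 FPKM without doxycycline and at 33.3, 31.8 and 32.1 FPKM at day 2 (-0.70 ± 0.14, adjusted p = 0.00035). In each of these genes every day 2 library was below every untreated library. Mvk, the mevalonate kinase (-0.78 ± 0.13, adjusted p = 5e-05), and Sqle, the squalene epoxidase (-0.48 ± 0.11, adjusted p = 0.0014), also fell.

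The genes that rose at day 2 were Dhcr7, the last reductase of cholesterol synthesis, and Acly. Dhcr7 was at 3.53, 3.95 and 3.12 FPKM without doxycycline and at 4.92, 6.03 and 6.24 FPKM at day 2 (0.57 ± 0.12, adjusted p = 0.00066). Acly rose by 0.30 ± 0.10 (adjusted p = 0.016), a call lost without untreated replicate 3 (adjusted p = 0.051) or day 2 replicate 3 (adjusted p = 0.056). Of the regulators, Insig1 fell by 0.46 ± 0.14 (adjusted p = 0.013), a call lost without untreated replicate 1 (adjusted p = 0.053) or day 2 replicate 3 (adjusted p = 0.065). Srebf1 (0.02), Srebf2 (-0.15), Fasn (0.20), Scd1 (-0.15) and Scd2 (-0.09) were not called.

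The pattern was narrower at the later days of caMEK1. At day 4, 5 genes rose and 7 fell (57.8% of all genes were called), and at day 7, 2 rose and 13 fell (62.1%), shares that lie below the background of those days. Me1 makes the cytosolic malic enzyme, a source of NADPH for lipid synthesis, and lies at GRCm38 9:86581371-86695953. Me1 was at 37.5, 35.5 and 40.1 FPKM without doxycycline, at 20.8, 20.9 and 22.8 at day 2, at 22.9, 23.4 and 24.3 at day 4 and at 23.9, 24.7 and 26.7 at day 7. It thus lay below every untreated library at all 3 times, with log2 changes of -0.78 ± 0.08 (adjusted p = 1.1e-07), -0.65 ± 0.08 (adjusted p = 6e-07) and -0.57 ± 0.08 (adjusted p = 3.1e-06). Fads2, the delta-6 desaturase of polyunsaturated fatty acids, was at 36.8, 42.4 and 33.2 FPKM without doxycycline and at 18.1, 21.3 and 15.2 FPKM at day 7. Its fall of 1.01 ± 0.14 (adjusted p = 5.4e-06) had the greatest size among the members at day 7. At day 4 it was -0.67 ± 0.14 (adjusted p = 0.00057).

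At day 7 the sterol genes Cyp51 (34.3, 37.8 and 24.1 FPKM, -0.75 ± 0.15, adjusted p = 0.00018), Pmvk (8.81, 9.69 and 8.18 FPKM, -0.69 ± 0.13, adjusted p = 8.9e-05) and Mvk (-0.60 ± 0.13, adjusted p = 0.00034) were still below untreated cells. Stard4, which carries cholesterol between membranes, went from 11.7, 12.5 and 10.5 FPKM to 7.64, 8.66 and 5.67 FPKM (-0.61 ± 0.12, adjusted p = 0.00014). Hmgcs1 was at 45.7, 50.3 and 32.2 FPKM at day 7, so that replicate 3 alone was near its day 2 level. Its fall (-0.33 ± 0.14, adjusted p = 0.039) was lost without any of the untreated libraries or without day 7 replicate 3, and that of Sqle (-0.31 ± 0.11, adjusted p = 0.019) without untreated replicate 2 or day 7 replicate 3. Msmo1, the methylsterol monooxygenase, was among the genes that rose at day 4 (0.55 ± 0.11, adjusted p = 0.00037), when Mvk remained lower (-0.56 ± 0.13, adjusted p = 0.00077).

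**Figure D2:**
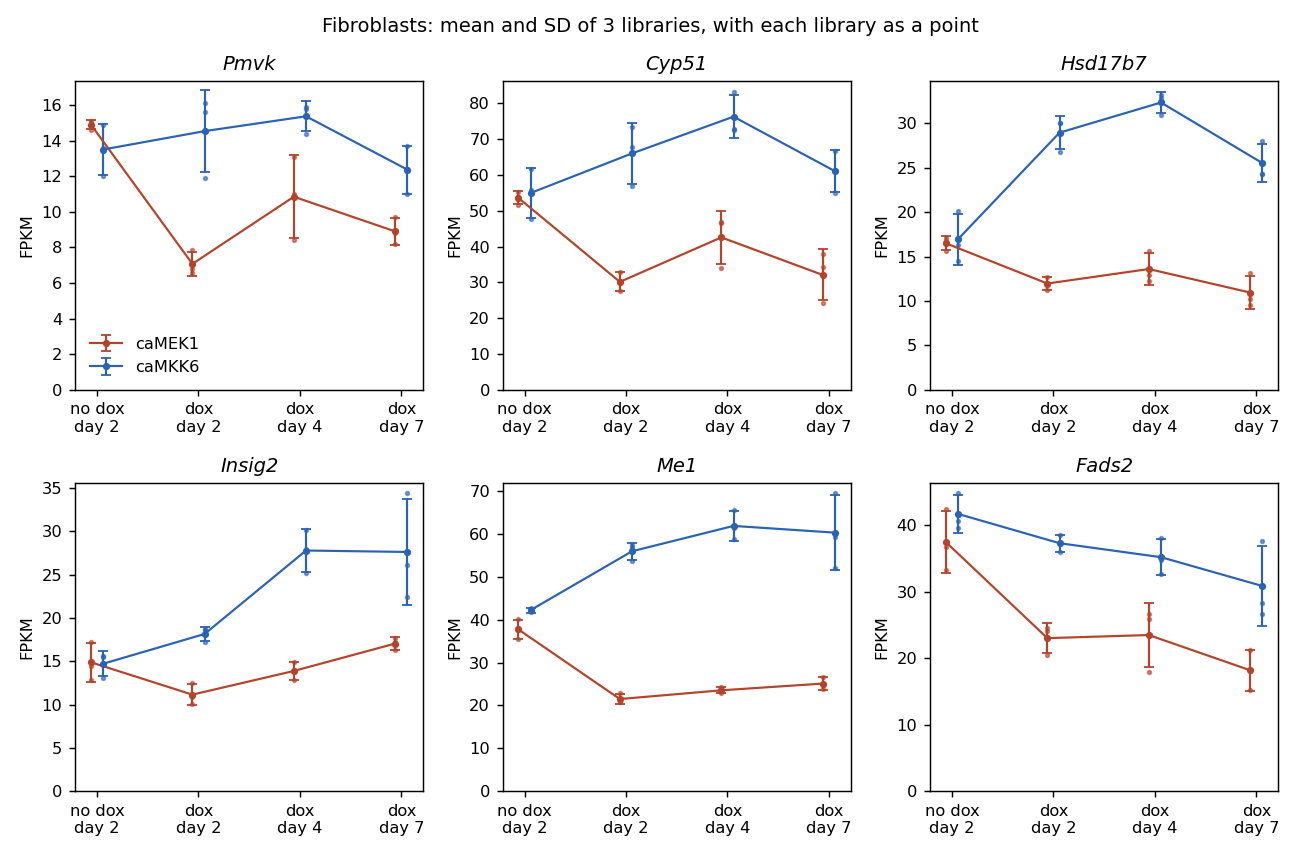
FPKM of Pmvk, Cyp51, Hsd17b7, Insig2, Me1 and Fads2 in untreated MEFs at day 2 and in MEFs after 2, 4 and 7 days of doxycycline (horizontal axis), caMEK1 in red and caMKK6 in blue; points are libraries, lines join the means of 3 libraries and bars are SD. Me1 lies at 20.8 to 26.7 FPKM in caMEK1 cells on doxycycline and at 52.1 to 69.4 FPKM in caMKK6 cells.

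In MEFs with active MKK6, members moved in both directions. At day 2, 4 rose and 5 fell (39.2% of all genes were called). At day 4, 11 rose and 4 fell, where 44.8% were called in either direction and 17.1% rose, and at day 7, 4 rose and 8 fell (40.8%). Of the genes that rose at day 4, 6 belonged to the 11 from squalene to cholesterol, with 1 of 7 in the mevalonate arm, 2 of 5 regulators and 2 of 9 fatty acid genes. The median member changed by 0.05, 0.19 and 0.05 at days 2, 4 and 7, against -0.06, -0.06 and -0.04 over all genes. Scaling libraries to a common median moved the share of all called genes that rose from 36.6% to 52.9%, from 38.2% to 53.9% and from 41.1% to 51.4%, and gave 13 rises and 2 falls among the members at day 4. With the replicate number as a block within genotype, 15 members were called at day 2.

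Hsd17b7, a ketoreductase that removes the C4 methyl groups of sterols with its partners, was at 16.3, 20.1 and 14.5 FPKM without doxycycline. It reached 30.0, 30.1 and 26.8 FPKM at day 2, 33.2, 32.9 and 31.0 at day 4 and 24.3, 28.0 and 24.3 at day 7, above every untreated library each time. The log2 changes were 0.75 ± 0.11 (adjusted p = 5.2e-05), 0.91 ± 0.11 (adjusted p = 4.4e-06) and 0.57 ± 0.11 (adjusted p = 0.00047). Insig2, which retains SREBPs in the endoplasmic reticulum, was at 15.6, 13.1 and 15.5 FPKM without doxycycline, at 28.0, 30.2 and 25.2 FPKM at day 4 and at 26.1, 34.4 and 22.4 FPKM at day 7. Both late groups lay above the untreated one, with rises of 0.87 ± 0.12 (adjusted p = 1.6e-05) and 0.84 ± 0.12 (adjusted p = 2.4e-05). Me1, which fell with caMEK1, rose with caMKK6 from 41.7, 42.8 and 42.1 FPKM to 59.2, 69.4 and 52.1 FPKM at day 7 (0.49 ± 0.08, adjusted p = 5.5e-05). It had also risen at day 2 (0.40 ± 0.08, adjusted p = 0.00061) and day 4 (0.54 ± 0.08, adjusted p = 2.1e-05).

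Other rises at day 4 were Fdft1, the squalene synthase (0.68 ± 0.11, adjusted p = 9.6e-05), and Insig1 (0.52 ± 0.14, adjusted p = 0.0049). Ebp, a sterol isomerase, fell at day 2 (-0.49 ± 0.10, adjusted p = 0.0012). Mvk fell as well (-0.38 ± 0.13, adjusted p = 0.023), but not without untreated replicate 2 (adjusted p = 0.093), without day 2 replicate 3 (adjusted p = 0.09) or after median scaling. The falls at day 7 included Elovl6, which lengthens palmitate to stearate, from 15.6, 19.7 and 15.1 FPKM to 10.5, 9.58 and 12.3 FPKM (-0.59 ± 0.13, adjusted p = 0.0012). Srebf1 (-0.32 ± 0.09, adjusted p = 0.0086), Fads2 (-0.44 ± 0.14, adjusted p = 0.021), Stard4 (-0.38 ± 0.12, adjusted p = 0.014) and Fasn (-0.32 ± 0.12, adjusted p = 0.037) fell at day 7 too. The call of Fads2 was lost without untreated replicate 2 or day 7 replicate 1 or 2, that of Stard4 without untreated replicate 2 or day 7 replicate 2, and that of Fasn without untreated replicate 1 or 2, without day 7 replicate 1, with no filter or after median scaling; without untreated replicate 2, 7 members were called at day 7. Without the 5 libraries that held the MEK1 transgene, the counts at days 2, 4 and 7 were 1, 4 and 3, with Hsd17b7 called at each time and Me1 and Insig2 at day 7.

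The 2 kinases differed in their day 7 change for 9 members (2 higher and 7 lower with caMEK1; 37.8% of all genes differed). Of all genes that differed, 61.6% were higher with caMEK1 and 44.5% after median scaling, and the replicate block within genotype gave 14 members. Without the 5 caMKK6 libraries that held the MEK1 transgene, 6 members differed, and Insig2 (adjusted p = 0.07), Fads2 (adjusted p = 0.1) and Pmvk (adjusted p = 0.056) lost their calls. Hsd17b7 fell with caMEK1 (-0.56 ± 0.11, adjusted p = 0.00024) and rose with caMKK6, a difference of -1.13 ± 0.16 (adjusted p = 1.4e-05), and Me1 differed by -1.06 ± 0.11 (adjusted p = 3e-07). Cyp51 differed by -0.90 ± 0.21 (adjusted p = 0.0019) and Dhcr7 by 0.73 ± 0.17 (adjusted p = 0.0019). Between the untreated MEFs of the genotypes, limma called 0 members (6.48% of all genes), with 3 at an unadjusted p below 0.05 and 0 by voom on the recovered reads. With the block, Msmo1 (-0.30, adjusted p = 0.049) and Sc5d (-0.24, adjusted p = 0.034) were called there. Of all called genes there, 63% were higher in caMEK1, and 49.4% after median scaling. Of 15 genes of proliferation, 2 fell at day 2 with caMEK1 and 4 with caMKK6, and all 15 fell at days 4 and 7 with both kinases. Fibroblast markers (10 listed) summed to 2093 to 2480 FPKM in untreated caMEK1 MEFs, 1635 to 1665 at day 2 and 1338 to 1481 at day 7, and to 2426 to 2904 in untreated caMKK6 MEFs and 2332 to 2697 at day 7. The list was split at day 7 of caMEK1. Col1a1 (means of 576 to 114 FPKM), Col1a2, Col3a1, Pdgfrb, Postn and Thy1 fell. Dcn (8.46 to 28.3 FPKM), Lum and Pdgfra (7.35 to 23.2 FPKM) rose, and Vim was not called. Macrophage markers (10 listed, 2 at 0) summed to 29.5 to 50.4 FPKM in untreated caMEK1 MEFs, 33.5 to 56.7 at day 2 and 107 to 269 at day 7, when Lyz2 rose by 2.57 ± 0.81 (adjusted p = 0.0098). In caMKK6 MEFs they summed to 34.4 to 232 FPKM without doxycycline and 85.8 to 732 at day 7. The part of these genes in the members' changes was not tested.

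In liver, sterol genes stood at different levels in mCherry cells of caMEK1 and caMKK6 mice, which received different doses of doxycycline. Many of these calls, most of them in sterol genes, rested on caMKK6 animal 1, as given below. Promoters were looked up for a named list of members: Hmgcs1, Mvd, Cyp51, Msmo1, Nsdhl, Hsd17b7, Insig2 and Me1. The windows of Cyp51, Msmo1, Hsd17b7 and Me1 ran into the annotated gene and were left out. The 4 genes shown were among the 6 members that differed most between caMEK1 and caMKK6 mCherry cells. The letters are the 150 bases before the RefSeq start (GRCm38.p6), 5′ to 3′ on the gene's strand, with matches to CCAAT (or its reverse complement ATTGG) and to the sterol regulatory element TCACNCCAC in capitals.
Hmgcs1, chr13:119690201-119690350, plus strand: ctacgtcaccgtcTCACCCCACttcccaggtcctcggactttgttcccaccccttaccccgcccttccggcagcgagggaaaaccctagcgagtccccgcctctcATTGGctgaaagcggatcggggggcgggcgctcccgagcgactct
Mvd, chr8:122443423-122443572, minus strand: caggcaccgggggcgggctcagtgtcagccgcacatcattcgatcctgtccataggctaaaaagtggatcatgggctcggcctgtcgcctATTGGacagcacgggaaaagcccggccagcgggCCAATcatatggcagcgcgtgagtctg
Nsdhl, chrX:72918371-72918520, plus strand: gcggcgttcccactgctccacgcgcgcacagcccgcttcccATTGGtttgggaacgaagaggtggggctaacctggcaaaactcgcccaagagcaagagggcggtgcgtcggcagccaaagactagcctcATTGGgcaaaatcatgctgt
Insig2, chr1:121332590-121332739, minus strand: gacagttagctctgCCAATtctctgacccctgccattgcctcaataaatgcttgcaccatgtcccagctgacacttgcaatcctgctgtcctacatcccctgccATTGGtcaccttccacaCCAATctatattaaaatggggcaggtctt
The Hmgcs1 window holds 1 sterol regulatory element and 1 CCAAT box, and Mvd, Nsdhl and Insig2 hold 2, 2 and 3 CCAAT boxes.

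RefSeq windows of 250 bases before to 50 after the start were matched for 25 of the 32 members. A gene was counted where the window of any of its listed starts held the match. The sterol regulatory element TCACNCCAC, searched on both strands, was in 1 of the 25 (Hmgcs1), or 4%, and in 1.44% of 27025 genes with windows of the same length. CCAAT, to which NF-Y binds, was in 21 of the 25 members (84%) and in 41.1% of all these genes. The E-box CACGTG was in 4 of the 25 (16%) and in 8.09% of all these genes. Such matches describe the letters and do not show that a factor binds there.

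In mCherry hepatocytes, sterol genes stood higher with caMEK1 than with caMKK6. Between the kinases 14 members were higher with caMEK1 and 2 lower, where 31.7% of all genes differed in either direction and 4.52% were higher. All 18 genes of the mevalonate arm and of squalene to cholesterol had positive differences, of which 4 of 7 and 8 of 11 were called. The median member differed by 0.73 and the median of all genes by -0.31. Median scaling moved the share of higher genes among all called from 14.2% to 51.5% and left 15 members higher and 2 lower.

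Hmgcs1, the gene whose promoter letters hold the sterol regulatory element, was at 140, 70.4 and 38.2 FPKM in caMEK1, 6.06 and 18.9 in caMKK6 and 27.0 and 16.6 in Control mCherry cells. The lowest caMEK1 library was above the highest caMKK6 library, a difference of 2.63 ± 0.65 (adjusted p = 0.0061). Sqle followed the same order, with 66.9, 40.9 and 27.7 FPKM in caMEK1, 1.52 and 10.9 in caMKK6 and 9.99 and 8.91 in Control cells (2.99 ± 0.71 between the kinases, adjusted p = 0.0048). Mvd, the mevalonate diphosphate decarboxylase, was at 11.2, 12.9 and 4.86 FPKM with caMEK1 and at 0.556 and 1.64 FPKM with caMKK6 (2.30 ± 0.45, adjusted p = 0.0012). For these genes, too, no caMEK1 library reached down to the caMKK6 range. Nsdhl, a sterol dehydrogenase, was at 33.7, 19.8 and 10.9 FPKM with caMEK1 and at 2.54 and 5.21 FPKM with caMKK6 (2.13 ± 0.50, adjusted p = 0.0047). Msmo1 differed by 2.52 ± 0.63 (adjusted p = 0.0064).

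Insig2 and Me1 ran the other way. Insig2, at GRCm38 1:121304353-121332589, was at 42.0, 44.2 and 50.6 FPKM with caMEK1, 254 and 168 with caMKK6 and 130 and 156 in Control mCherry cells. The 3 groups did not overlap, and the kinases differed by -2.16 ± 0.27 (adjusted p = 2.5e-05). Me1 was at 1.34, 2.18 and 2.26 FPKM with caMEK1, 6.97 and 18.6 with caMKK6 and 12.8 and 11.8 in Control cells (-2.11 ± 0.41 between the kinases, adjusted p = 0.0012). Without caMKK6 replicate 1, the difference between the kinases was called in 6 members. Sqle (1.87, adjusted p = 0.096), Hmgcs1 (1.88, adjusted p = 0.087), Msmo1 (1.75, adjusted p = 0.097) and Nsdhl (1.72, adjusted p = 0.056) were among the 10 that were lost.

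**Figure D3:**
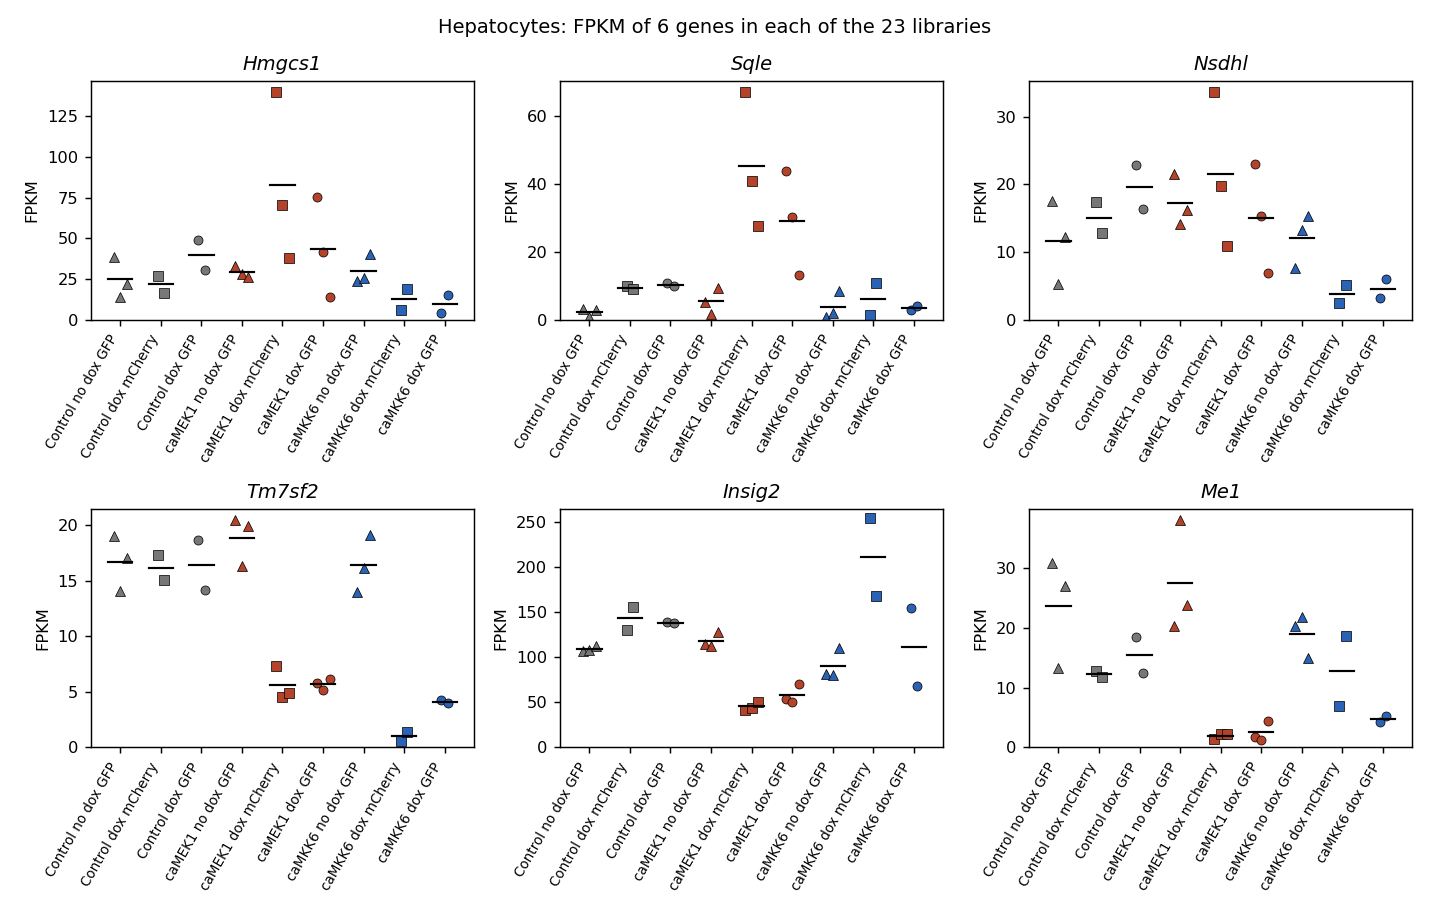
FPKM of Hmgcs1, Sqle, Nsdhl, Tm7sf2, Insig2 and Me1 in the 23 liver libraries by group, on axes from 0; grey is Control, red caMEK1 and blue caMKK6, triangles are untreated GFP cells, squares mCherry and circles GFP cells on doxycycline, and lines are group means. The highest group means of Hmgcs1 and Sqle are those of caMEK1 mCherry cells, whose libraries lie at 38.2 to 140 and 27.7 to 66.9 FPKM.

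Against the mCherry cells of Control mice, caMEK1 hepatocytes had 4 members higher and 5 lower (27.1% of all genes were called), with a median member of -0.24 and a median of all genes of -0.04. Of all called genes 39.6% rose, and 50.1% after quantile normalization. The Control mCherry group has 2 libraries, which serve both kinases' comparisons. Scd2 was at 0.502 and 0.448 FPKM in Control and at 10.2, 8.02 and 3.29 FPKM in caMEK1 cells (2.36 ± 0.42, adjusted p = 0.00052). Sqle (2.06 ± 0.71, adjusted p = 0.04), Mvd (1.52 ± 0.45, adjusted p = 0.018) and Lss, the lanosterol synthase (3.52 and 2.74 against 14.3, 11.1 and 5.84 FPKM, 1.39 ± 0.30, adjusted p = 0.0025), also rose. The calls of Sqle and Mvd were each lost without either Control library or without caMEK1 replicate 1 or 2 (adjusted p of 0.08 to 0.17 and 0.058 to 0.13), and that of Sqle also with a pseudocount of 0.1, with no filter or by voom (adjusted p = 0.085). Hmgcs1, higher in each caMEK1 library than in both Control libraries, missed the threshold (1.72 ± 0.65, adjusted p = 0.059).

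Genes that fell in caMEK1 hepatocytes were Me1 (-2.20 ± 0.41, adjusted p = 0.00078), Insig2 (-1.63 ± 0.27, adjusted p = 0.00031), Sc5d, Tm7sf2 and Ebp. Sc5d, the lathosterol oxidase, went from 81.1 and 73.7 FPKM to 31.8, 21.4 and 24.7 FPKM (-1.56 ± 0.39, adjusted p = 0.007), a call lost without Control replicate 1 (adjusted p = 0.064) or under quantile normalization. Tm7sf2, a sterol C14 reductase, went from 17.3 and 15.1 FPKM to 7.37, 4.56 and 4.94 FPKM (-1.40 ± 0.21, adjusted p = 0.0001). The regulators Srebf1 (60.6 and 54.7 FPKM in Control, 14, 16.1 and 20.6 in caMEK1 cells; -1.73 ± 0.82, adjusted p = 0.13), Srebf2 (0.37, adjusted p = 0.26) and Insig1 (-0.45, adjusted p = 0.64) were not called. Neither were Fasn (-1.15 ± 1.07, adjusted p = 0.47) and Scd1, at 443 and 499 FPKM in Control and 29.1, 23.6 and 147 FPKM in caMEK1 cells (-3.30 ± 1.34, adjusted p = 0.077). With the animal as a block, 14 members were called (6 higher, 8 lower), among them Hmgcs1 (adjusted p = 0.027) and Scd1 (adjusted p = 0.041). Hepatocyte markers summed to 76320 to 108473 FPKM in caMEK1 and 49329 to 49517 FPKM in Control mCherry cells, and cholangiocyte markers to 31.7 to 118 and 12.7 to 17 FPKM, with Krt19 at a mean of 0.573 and Krt7 at 0.0815 FPKM in caMEK1 cells; their part in the result was not tested.

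With caMKK6, 9 members fell in mCherry hepatocytes and 0 rose, where 38.2% of all genes were called in either direction and 9.29% fell. By role, 7 of the 11 genes from squalene to cholesterol and 2 of the 9 fatty acid genes fell. All 7 mevalonate genes had negative values, from -0.91 to -0.45, with 0 called. The median member changed by -0.89 and the median of all genes by 0.25. Median scaling took the share of rises among all called genes from 75.7% to 39.4% and again gave 0 rises and 9 falls of members.

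Tm7sf2 was at 0.614 and 1.42 FPKM in caMKK6 against 17.3 and 15.1 FPKM in Control mCherry cells, and its fall of 3.12 ± 0.23 (adjusted p = 9.4e-08) was followed by that of Fads2. Fads2 was at 5.65 and 49.7 FPKM against 92.3 and 89.1 FPKM (-2.32 ± 0.73, adjusted p = 0.02), so the caMKK6 animals differed widely from each other. Msmo1 (2.55 and 9.46 against 24 and 21.9 FPKM, -1.97 ± 0.69, adjusted p = 0.033) and Cyp51 (5.37 and 15.6 against 32.8 and 29.5 FPKM, -1.64 ± 0.55, adjusted p = 0.028) were lower in both animals. Sc5d (-1.81 ± 0.43, adjusted p = 0.0044) and Nsdhl (-1.77 ± 0.55, adjusted p = 0.019) fell as well. Without caMKK6 replicate 1, the animal that stood apart, 2 members were called, Tm7sf2 and Ebp; without replicate 2, 14 were called, and without either Control library 3. Fads2, Msmo1, Nsdhl and Cyp51 lost their calls without either Control library or without caMKK6 replicate 1, and Sc5d without caMKK6 replicate 1 alone (adjusted p = 0.084). Srebf1 was at 8.88 and 60.5 FPKM, Insig1 at 6.79 and 43.2 FPKM and Scd1 at 40.4 and 824 FPKM in the 2 caMKK6 animals, which thus lay far apart, and none of the 3 was called. Macrophage markers summed to 87.5 to 161 FPKM with caMKK6 and 28.9 to 45.2 FPKM in Control mCherry cells; their part in the result was not tested.

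The GFP cells around the kinase-bearing hepatocytes changed too. In caMEK1 mice, 12 members fell and 2 rose in GFP cells on doxycycline against untreated GFP cells (38.5% of all genes called, 32% fell), so the share of falls was near that of all genes. The median member changed by -0.65 and the median of all genes by -0.25. After median scaling 38.6% of all called genes rose, against 16.8%, and 3 members rose and 10 fell. Scd1 was at 1150, 3380 and 1437 FPKM in untreated and at 18.4, 14.8 and 413 FPKM in doxycycline-treated mice (-5.14 ± 1.19, adjusted p = 0.0031). Me1 went from 20.4, 38.1 and 23.9 FPKM to 1.81, 1.30 and 4.50 FPKM (-3.07 ± 0.37, adjusted p = 1.9e-05). All treated animals lay below all untreated ones for both genes, and animal 3 was the least changed.

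Fads2 (191, 162 and 117 to 31.3, 22.7 and 28.5 FPKM, -2.45 ± 0.59, adjusted p = 0.004) and Sc5d (137, 138 and 88.1 to 25.4, 21.6 and 19.2 FPKM, -2.38 ± 0.35, adjusted p = 0.00011) fell in GFP cells, though Fads2 not under quantile normalization (adjusted p = 0.053). Srebf1 (-1.91 ± 0.73, adjusted p = 0.047) and Insig1 (-1.47 ± 0.54, adjusted p = 0.04) fell as well. The call of Insig1 was lost without any of the 3 treated libraries or without untreated replicate 1 or 2, and that of Srebf1 without the same libraries except treated replicate 3. Both were also lost with no filter, after median scaling, under quantile normalization, by voom and against Control GFP cells on doxycycline. Sqle rose from 5.10, 1.77 and 9.30 FPKM to 43.7, 30.2 and 13.2 FPKM (2.28 ± 0.64, adjusted p = 0.0099), but not without untreated replicate 2 (adjusted p = 0.06) or against Control GFP cells on doxycycline (adjusted p = 0.17). Scd2 rose by 1.16 ± 0.38 (adjusted p = 0.022), with the animal as a block at an adjusted p of 0.068, and lost its call without untreated replicate 1 or treated replicate 2 or 3, by voom and against Control GFP cells on doxycycline. Macrophage markers summed to 62.9 to 591 FPKM in these GFP cells and 32.7 to 59.2 FPKM in untreated ones; their part in the result was not tested.

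In caMKK6 mice 7 members fell in GFP hepatocytes and 0 rose (19% of all genes called, 13.8% fell), with a median member of -0.95 and a median of all genes of -0.07. Of all called genes 27.4% rose, and 37.9% after median scaling, with 0 rises and 6 falls of members. Tm7sf2 went from 14, 16.2 and 19.1 FPKM to 4.30 and 3.98 FPKM (-1.75 ± 0.21, adjusted p = 5.1e-05), with both animals alike. Fads2 (138, 142 and 132 to 10.7 and 83.2 FPKM, -2.14 ± 0.66, adjusted p = 0.033), Sc5d (-2.08 ± 0.39, adjusted p = 0.0026) and Me1 (20.4, 21.9 and 14.9 to 4.34 and 5.20 FPKM, -1.78 ± 0.41, adjusted p = 0.0078) were lower in both animals. Without animal 1, 1 member was called, while Sc5d (adjusted p = 0.11) and Me1 (adjusted p = 0.12) were not; without animal 2, 19 were called, and without untreated replicate 2, 4. The call of Fads2 was lost without any of the untreated libraries or without animal 1, with no filter, under quantile normalization and against Control GFP cells on doxycycline (adjusted p = 0.1). The animal block gave 11 calls, adding Acat2, Acly, Hmgcs1 (-1.67, adjusted p = 0.039) and Msmo1. Macrophage markers summed to 124 to 253 FPKM against 14.5 to 135 FPKM in untreated GFP cells, and their part in the result was not tested.

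In Control mice, doxycycline gave 0 called members in liver GFP cells by limma (0.0868% of all genes), with 1 at an unadjusted p below 0.05 and 0 by voom. Their Scd1 was nonetheless at 787 and 846 FPKM on doxycycline and at 4144, 1947 and 3195 FPKM without it. Within the same animals, mCherry and GFP hepatocytes differed in 0 members in Control mice by limma (0.106%; 0 at an unadjusted p below 0.05 and 0 by voom). In caMEK1 mice the count was also 0 (4.71%; 4 at an unadjusted p below 0.05 and 0 by voom). With the animal as a block, 4 were higher in caMEK1 mCherry cells: Lss (0.86, adjusted p = 0.0024), Mvd (0.91), Mvk (0.72) and Scd2 (1.06, adjusted p = 0.038). Leaving out mCherry replicate 3 gave 2 calls there, and GFP replicate 3 gave 1. In caMKK6 mice Tm7sf2 was lower in mCherry than in GFP cells (-1.38 ± 0.23, adjusted p = 0.0024; 4.28% of all genes called), and the block added Insig2 (0.99, adjusted p = 0.002) and Me1 (higher, adjusted p = 0.021). Without mCherry replicate 1 the count there was 2, and without GFP replicate 1 it was 4.

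In colon, desaturase genes were lower in caMEK1 than in Control mCherry cells. Against Control, 5 members rose and 5 fell (21.5% of all genes were called). The rises were 2 of 7 in the mevalonate arm and 3 of 11 from squalene to cholesterol, each lost without Control replicate 2 or without caMEK1 replicate 2, and the falls were 5 of 9 fatty acid genes. The median member changed by 0.25 and the median of all genes by -0.14, and of all called genes 44.3% rose, or 55.4% after median scaling. Scd2 was at 567 and 277 FPKM in Control and at 75.7 and 65.2 FPKM in caMEK1 cells (-2.48 ± 0.34, adjusted p = 5.3e-05). Scd1, the minor desaturase of colon, went from 23.2 and 14 FPKM to 2.34 and 2.76 FPKM (-2.42 ± 0.33, adjusted p = 4.2e-05). Both caMEK1 libraries lay below both Control libraries for each gene. How reads were divided between these similar genes is not given in the sources used here, so their separate values are uncertain to that extent.

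Fads2 and Fads1, the delta-6 and delta-5 desaturases, neighbour each other on chromosome 19 (GRCm38 19:10062765-10101746 and 19:10182888-10196877). Fads2 went from 164 and 113 FPKM to 50.4 and 22.7 FPKM (-1.97 ± 0.34, adjusted p = 0.00048). Fads1 was at 2.18 and 8.74 FPKM in Control and at 0.887 and 1.03 FPKM in caMEK1 cells (-1.51 ± 0.49, adjusted p = 0.034), a call lost without Control replicate 2, without caMEK1 replicate 1 or 2, with no filter, under quantile normalization and by voom. Acly fell from 118 and 98.8 FPKM to 42.0 and 45.5 FPKM (-1.28 ± 0.24, adjusted p = 0.00089).

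Among the sterol genes that rose, Fdft1 went from 35.2 and 16.2 FPKM to 43.2 and 66.3 FPKM (1.13 ± 0.34, adjusted p = 0.024). Mvd (20.5 and 15.6 to 30.8 and 38.0 FPKM, 0.90, adjusted p = 0.029) and Lss (7.45 and 7.43 to 10.6 and 16.5 FPKM, 0.76, adjusted p = 0.014) rose without overlap, as did Fdps, the farnesyl diphosphate synthase (0.87, adjusted p = 0.037). None of the 5 rises was called without Control replicate 2, when 1 other member rose and 4 fell, or without caMEK1 replicate 2, when 0 rose and 4 fell. Fdft1 was then at an adjusted p of 0.32 and 0.24. Lss and Fdps were not called without Control replicate 1 either (adjusted p = 0.053 for each), nor Fdps without caMEK1 replicate 1 (adjusted p = 0.089). Ly6g, on the neutrophil list, was at 588 to 1010 FPKM in caMEK1 colon cells, with Elane and Csf3r at 0 and S100a8 at 1.58 FPKM or less.

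**Figure D4:**
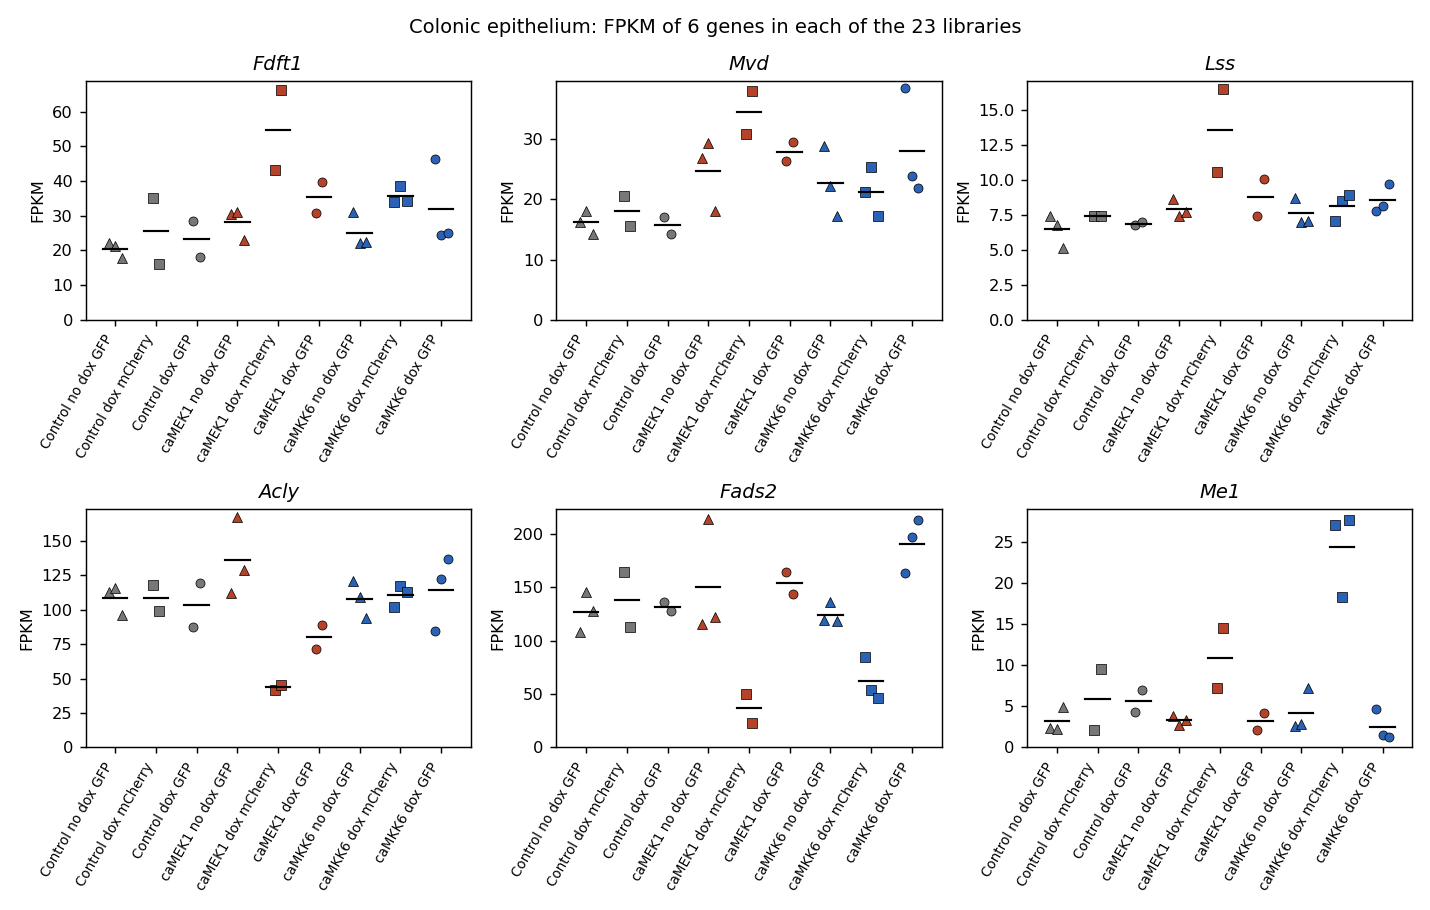
FPKM of Fdft1, Mvd, Lss, Acly, Fads2 and Me1 in the 23 colon libraries by group, on axes from 0; grey is Control, red caMEK1 and blue caMKK6, triangles are untreated GFP cells, squares mCherry and circles GFP cells on doxycycline, and lines are group means. Acly is lowest in caMEK1 mCherry cells (42.0 and 45.5 FPKM) and Me1 highest in caMKK6 mCherry cells (18.3 to 27.7 FPKM).

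With caMKK6, colon mCherry cells had 1 member higher and 2 lower than Control (20.8% of all genes called), the median member changing by 0.07 and the median of all genes by -0.06. Me1 was at 27.0, 18.3 and 27.7 FPKM in caMKK6 cells, above the Control libraries at 2.14 and 9.55 FPKM (2.12 ± 0.49, adjusted p = 0.0056). Without Control replicate 1 it was no longer called (1.24, adjusted p = 0.14). Fads2 (85.2, 53.8 and 46.7 against 164 and 113 FPKM, -1.17 ± 0.31, adjusted p = 0.013) and Scd2 (219, 192 and 190 against 567 and 277 FPKM, -0.98 ± 0.31, adjusted p = 0.031) were lower without overlap. Each of these calls was lost without Control replicate 1 or caMKK6 replicate 3, and that of Scd2 also without caMKK6 replicate 2, with no filter and against untreated GFP cells (adjusted p = 0.088). The count of called members was 0 without Control replicate 1, 5 without caMKK6 replicate 1 and 1 without caMKK6 replicate 3, and 5 with the animal as a block, which added Fdps and Tm7sf2.

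Set against each other in colon, the kinases differed in 4 members, 1 higher and 3 lower with caMEK1 (20.7% of all genes differed), with a median member of -0.07 and a median of all genes of -0.08. Scd1 (-1.92 ± 0.30, adjusted p = 0.0002), Scd2 (-1.49 ± 0.31, adjusted p = 0.0025) and Acly (-1.32 ± 0.22, adjusted p = 0.00034) were lower with caMEK1. Acly stood at 102, 117 and 113 FPKM in caMKK6 cells, within the Control range. Lss was higher with caMEK1 (0.65 ± 0.19, adjusted p = 0.02), a call lost without caMEK1 replicate 2 or caMKK6 replicate 1.

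Few members were called in GFP cells of the colon. The median member changed by -0.11 with caMEK1 and 0.08 with caMKK6, against -0.02 and -0.01 over all genes. The 9 fatty acid genes had medians of -0.66 with caMEK1 (8 negative) and -0.57 with caMKK6 (7 negative). In caMEK1 mice Scd1 alone was called, falling from 11.9, 17.5 and 18.5 FPKM to 2.78 and 3.29 FPKM (-2.05 ± 0.30, adjusted p = 0.001; 1.33% of all genes were called). Scd2 was not called, at 323, 490 and 330 FPKM in untreated and 135 and 190 FPKM in treated caMEK1 mice. In caMKK6 mice Elovl6 alone was called, falling from 11.1, 10.7 and 16.2 FPKM to 4.15, 5.14 and 6.85 FPKM (-1.10 ± 0.22, adjusted p = 0.017; 2.6% of all genes), and its call was lost without untreated replicate 1 or 3 or treated replicate 1; without treated replicate 3, 2 members were called. In Control mice limma called 0 members (0% of all genes), with 1 at an unadjusted p below 0.05 and 0 by voom, and 2 when treated replicate 2 was left out.

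In colon too, mCherry and GFP cells of the same animals were compared. Control mice gave 0 called members by limma (0.0866% of all genes; 0 at an unadjusted p below 0.05 and 0 by voom). In caMEK1 mice mCherry cells had 2 members higher and 3 lower than GFP cells (13.4% of all genes called; 42.5% of those higher, and 55.1% after median scaling). Fads2 was at 50.4 and 22.7 FPKM in mCherry and at 164 and 144 FPKM in GFP cells (-2.14 ± 0.34, adjusted p = 0.00044). Acly (42.0 and 45.5 against 71.6 and 88.9 FPKM, -0.85 ± 0.24, adjusted p = 0.022) and Scd2 (75.7 and 65.2 against 135 and 190 FPKM, -1.18 ± 0.34, adjusted p = 0.027) were lower in mCherry cells of both animals. Hsd17b7 (0.84 ± 0.27, adjusted p = 0.043) and Sc5d (0.72 ± 0.22, adjusted p = 0.035) were higher. With the animal as a block 14 members were called, 9 higher and 5 lower, while leaving out mCherry replicate 2 or GFP replicate 1 gave 1 and GFP replicate 2 gave 2. Fads2 kept its call in each of these fits, while those of Acly and Scd2 were lost without any of the 4 libraries.

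In caMKK6 colon, 3 members were higher and 4 lower in mCherry than in GFP cells (21.3% of all genes called). Me1 was at 27.0, 18.3 and 27.7 FPKM in mCherry and at 4.68, 1.48 and 1.23 FPKM in GFP cells of the same animals. It was higher in mCherry cells in 3 of 3 animals (2.98 ± 0.44, adjusted p = 0.00014). Fads2 was lower in all 3 (163, 197 and 213 FPKM in GFP cells, -1.65 ± 0.28, adjusted p = 0.00048). Tm7sf2 was also lower (-0.93 ± 0.23, adjusted p = 0.008) and Elovl6 higher (0.90 ± 0.22, adjusted p = 0.0085). The animal block gave 12 calls, 7 higher and 5 lower, and leaving out mCherry replicate 3 gave 4.

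The tissues were compared directly by subtracting the liver change from the colon change of mCherry cells against Control. With caMEK1, 6 members differed (4 greater and 2 smaller in colon; 19.6% of all genes). Scd2 rose in liver and fell in colon, a difference of -4.84 ± 0.56 (adjusted p = 9.8e-08). Me1 differed by 3.17 ± 0.70 (adjusted p = 0.0012), with 7.22 and 14.5 FPKM in caMEK1 and 2.14 and 9.55 FPKM in Control colon cells, against its fall in liver. Insig2 (1.94 ± 0.32, adjusted p = 2.9e-05) and Sc5d (1.85 ± 0.47, adjusted p = 0.0044) also differed.

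With caMKK6, 7 members differed, each with a greater value in colon (23.6% of all genes). The median member differed by 1.07 and the median of all genes by -0.24, and of all genes called 30.3% were greater in colon, or 59% after median scaling. Tm7sf2 (2.39 ± 0.35, adjusted p = 1.1e-05), Msmo1 (2.27 ± 0.79, adjusted p = 0.035), Nsdhl (2.26 ± 0.61, adjusted p = 0.0073), Me1 (2.21 ± 0.70, adjusted p = 0.021) and Cyp51 (2.06 ± 0.60, adjusted p = 0.013) were among them. Of the 7, 6 are squalene to cholesterol genes. Without liver caMKK6 replicate 1 the count was 1, without liver caMKK6 replicate 2 it was 14, and without liver Control replicate 2 it was 4. Tm7sf2 was called each time. Me1 was not called without either liver Control library, colon Control replicate 1 or liver caMKK6 replicate 1 (adjusted p of 0.056 to 0.2), and Msmo1 not without either liver Control library, colon Control replicate 2, liver caMKK6 replicate 1 or colon caMKK6 replicate 2 or 3 (adjusted p of 0.052 to 0.24).

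The balance between the desaturases differed most between tissues, described here without a test. Scd2 made up 74.8% to 81.3% of the summed FPKM of Scd1 and Scd2 in MEFs and 91.1% to 98.3% in colon. In liver it made up 25.9%, 25.4% and 2.19% in the caMEK1 mCherry cells and 4.73%, 16% and 1.32% in the caMEK1 GFP cells of the same animals on doxycycline. Both colours of caMKK6 animal 1 stood at 1.39% and 1.45%, and all other liver libraries between 0.013% and 0.272%. Scd1 was at 14.8 to 413 FPKM in the caMEK1 liver libraries on doxycycline and at 40.4 and 87.1 FPKM in caMKK6 animal 1. Scd2 was at 3.29 to 10.2 FPKM in the caMEK1 mCherry cells and at 0.912, 2.81 and 5.51 FPKM in the GFP cells, of which the lowest lay within the range of treated Control GFP cells (0.625 and 2.26 FPKM).

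**Figure D5:**
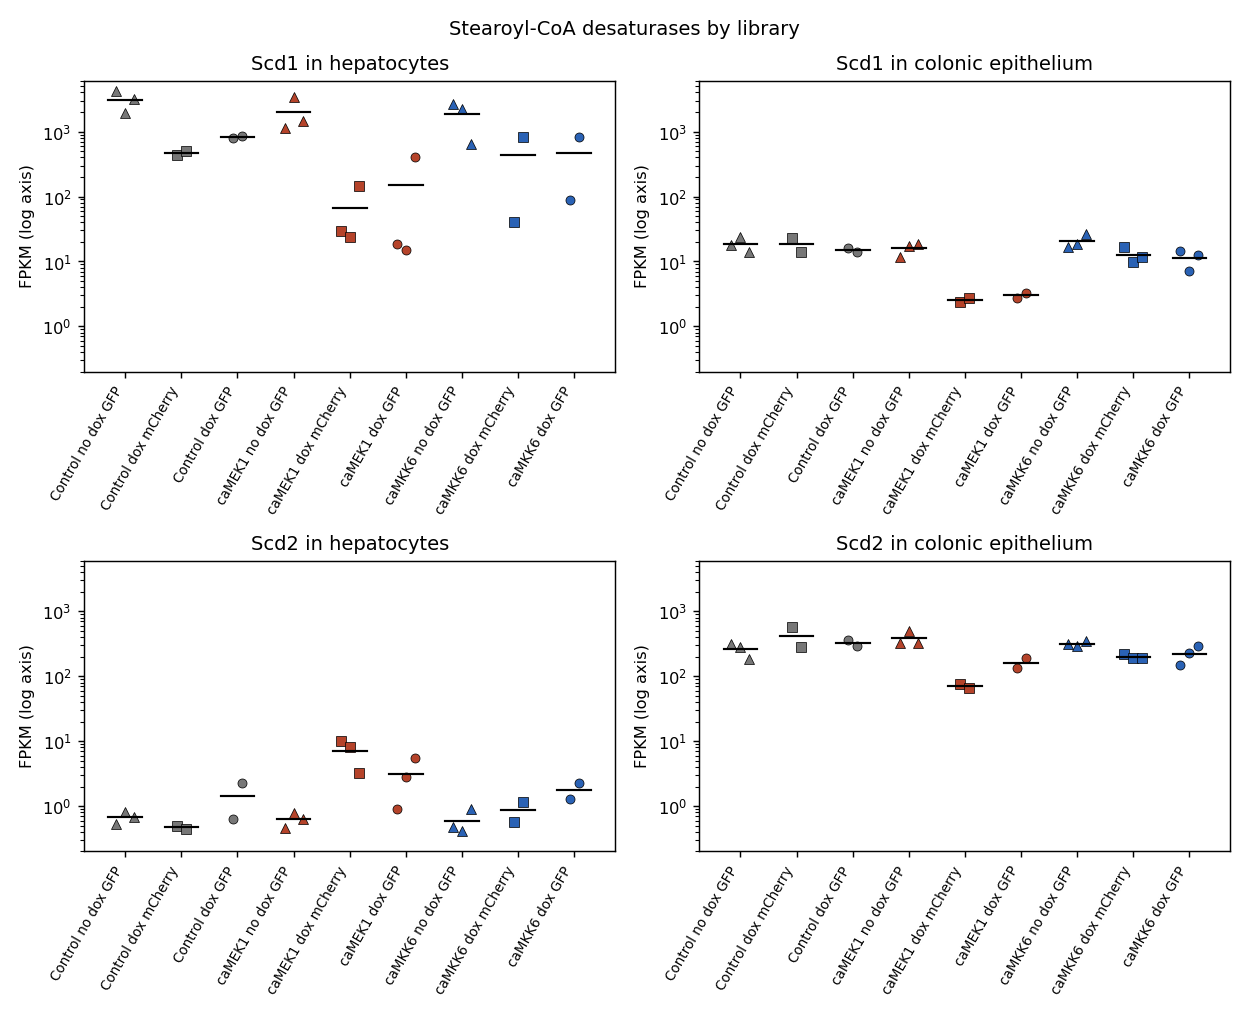
FPKM of Scd1 and Scd2 on a logarithmic axis in the liver and colon libraries by group; grey is Control, red caMEK1 and blue caMKK6, triangles are untreated GFP cells, squares mCherry and circles GFP cells on doxycycline, and lines are group means. In liver, caMEK1 mCherry cells show Scd2 at 3.29 to 10.2 FPKM against 0.448 and 0.502 FPKM in Control mCherry cells, while in colon both genes are lowest in caMEK1 mCherry cells.

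Other genes of the SREBP pathway and of lipid synthesis (20 listed) gave mixed counts. At day 7 in MEFs, 6 rose and 6 fell of 15 tested with caMEK1 (62.1% of all genes were called), with Lpin1, a phosphatidate phosphatase, up by 1.15 ± 0.10 and Scap, the escort protein of SREBPs, up by 0.96 ± 0.08 (adjusted p = 6.6e-09). With caMKK6 6 rose and 4 fell (40.8% of all genes). In caMEK1 mCherry hepatocytes 0 rose and 6 fell of 19 (27.1% of all genes), with Mlxipl, which encodes the glucose-responsive factor ChREBP (-2.61 ± 0.32, adjusted p = 1.4e-05), Acacb, the mitochondrial acetyl-CoA carboxylase (-2.21 ± 0.50, adjusted p = 0.0032), and Thrsp, a lipogenic protein (-2.67 ± 0.88, adjusted p = 0.032), among the falls. In caMKK6 mCherry hepatocytes 1 rose and 2 fell (38.2% of all genes), Acacb by 2.59. In colon, 2 rose and 2 fell of 18 with caMEK1 (21.5% of all genes) and 2 rose and 3 fell with caMKK6 (20.8%). Dgat2, which makes triglycerides, rose there with caMEK1 (2.14 ± 0.38) and caMKK6 (1.07).

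Of the LXR and sterol efflux genes (12 listed), 5 rose and 0 fell of 7 tested at day 7 of caMEK1 in MEFs, where 62.1% of all genes were called and Npc2, a lysosomal cholesterol carrier, rose by 0.89 ± 0.06 beside its partner Npc1. With caMKK6, 5 rose and 1 fell (40.8%). In mCherry hepatocytes 0 rose and 1 fell of 11 with caMEK1 (27.1% of all genes), the sterol exporter Abcg5 (-1.74 ± 0.51, adjusted p = 0.017), and 2 rose and 1 fell with caMKK6 (38.2%). In mCherry colon cells 1 rose and 5 fell of 11 with caMEK1 (21.5%) and 0 rose and 3 fell with caMKK6 (20.8%). Mylip, a ubiquitin ligase induced by LXR, fell in both (-1.77 and -1.45).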

How the data were processed

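The authors deposited 1 table of FPKM values for 70 libraries (21863 entries: 21859 genes and 4 reporters and transgenes). Per the submitters' processing notes, reads were handled with cutadapt 1.12 and STAR 2 against mm10; the counting tool and annotation are not given in the sources used here. Of the gene IDs, 21191 matched GENCODE M21 (GRCm38), which gave positions and exon lengths. With exon lengths taken into account, values below 1000 reads fell on whole numbers (tolerance 0.02) for 100% of entries, which gave each library's depth and the reads for voom.

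Groups come from the labels. The members, the lists and the naming rule were chosen with earlier results of these data known. That rule took up to 6 called members with the largest change (higher group at 5 FPKM or more) at day 7 and against Control mCherry, up to 4 elsewhere, 8 standing genes (Srebf1, Srebf2, Insig1, Hmgcs1, Sqle, Fasn, Scd1, Scd2) and up to 3 genes per other list; other genes were named after their values were seen, and 1 gene of the other lists is not reported here. Each tissue had 1 fit with limma 3.58.1 (R 4.3.3; lmFit, eBayes with a trend) on log2(FPKM + 1), keeping genes that reached 1 FPKM in at least 3 MEF or 2 tissue libraries: 11347 genes in MEFs, 10371 in liver and 11542 in colon. The difference between tissues used a joint fit of 12690 genes. Tests are two-sided, with Benjamini-Hochberg adjustment over all genes tested within each of 28 comparisons and none across comparisons. The fitting code was tested on simulated data.

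Alternatives were a pseudocount of 0.1, no filter, median scaling, quantile normalization, a replicate block (by number in MEFs and by animal in liver and colon), another comparator (mCherry cells against untreated GFP cells of their genotype; GFP cells against treated Control GFP cells) and each library left out. Those added after seeing the data were voom on the recovered reads (without Fdft1, so 31 members), a replicate block within genotype and the fit without the 5 caMKK6 MEF libraries that held the MEK1 transgene. Within a genotype, MEF libraries with the same number deviated together, at correlations above 0.1, in 36 of 36 pairs (0.112 to 0.803). With different numbers within a genotype 4 of 72 pairs did so. Across genotypes 2 of 48 pairs with the same number and 34 of 96 with different numbers did so. Numbers were therefore taken to pair libraries within genotype. In tissues, mCherry and GFP libraries with the same number on doxycycline are the same animal per the labels. Python 3.11.15 with pandas 2.3.3 and numpy 2.4.6 prepared the tables. All 70 libraries entered the main results.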

Additional observations from a re-analysis of the deposited data

Results flagged for a closer look

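For 9 members the day 7 change in MEFs differed between caMEK1 and caMKK6 by the test of the difference itself, where 37.8% of all genes differed. Hsd17b7 (-1.13 ± 0.16, adjusted p = 1.4e-05) and Me1 (-1.06 ± 0.11, adjusted p = 3e-07, limma) fell with caMEK1 and rose with caMKK6, each in 3 of 3 libraries of either kinase. The change of mCherry cells against Control differed between colon and liver for 6 members with caMEK1 and for 7 with caMKK6, of 32 each, where 19.6% and 23.6% of all genes differed; without liver caMKK6 replicate 1 the 7 became 1. As shares of the 32 members, the 9, 6 and 7 were 28.1%, 18.8% and 21.9%, each below the share of all genes. Scd2 rose in caMEK1 liver and fell in caMEK1 colon, a difference of -4.84 ± 0.56 (adjusted p = 9.8e-08), with all 3 liver libraries above and both colon libraries below their Control libraries.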

How the results depend on the processing

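The replicate block within genotype took the count of called members from 9 to 15 for caMKK6 day 2 in MEFs, from 9 to 14 for the day 7 difference (14 also after median scaling) and from 0 to 2 between untreated MEFs. Without the caMKK6 libraries that held the MEK1 transgene, caMKK6 days 2, 4 and 7 gave 1, 4 and 3. With the animal as replicate block the counts were 14 for liver caMEK1 mCherry, 11 for liver caMKK6 GFP, 4 and 3 for liver mCherry against GFP with caMEK1 and caMKK6, 5 for colon caMKK6 mCherry, and 14 and 12 for colon mCherry against GFP; the block changed no other count by more than 1.5 times. The other comparator gave 18 for liver caMEK1 mCherry, 9 for liver caMEK1 GFP, 7 for colon caMKK6 mCherry and 2 for colon caMKK6 GFP. Quantile normalization gave 8 and 3 for liver caMEK1 and caMKK6 GFP, 2 for colon caMEK1 GFP and 3 for colon caMEK1 mCherry against GFP. With 1 library left out the counts ranged from 7 to 12 for caMKK6 day 7 in MEFs, from 2 to 14 for liver caMKK6 mCherry, from 6 to 18 between the kinases in liver, from 1 to 19 for liver caMKK6 GFP, and from 0 to 2 and 1 to 4 for liver mCherry against GFP with caMEK1 and caMKK6. In colon they ranged from 4 to 9 for caMEK1 mCherry, 0 to 5 for caMKK6 mCherry, 0 to 2 for Control GFP and for caMKK6 GFP, and 1 to 5 and 4 to 9 for mCherry against GFP, and from 1 to 14 for the caMKK6 difference between tissues. The cause was not tested, beyond the smaller number of libraries. No call reversed. Single calls stayed past the threshold in 191 of 193 with a pseudocount of 0.1, 171 with no filter, 181 after median scaling, 165 after quantile normalization, 192 with the replicate block, 176 of 187 by voom, 42 of 54 with the other comparator, 14 of 45 without the libraries that held the MEK1 transgene and 915 of 1161 with a library left out. Where 1 library of a group was left, it was assumed to vary like the other groups. The median of all genes, which median scaling brings near 0, was off by more than 0.1 also for liver Control and caMKK6 mCherry against GFP (-0.25 and 0.20), colon Control GFP (-0.12) and colon caMEK1 mCherry against GFP (-0.13). Groups of 2 or 3 libraries limit what these tests can show.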
